A study of Mus musculus with 12 samples.

Results

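Gdf3 and 9 other genes of the bone morphogenetic protein (BMP) and activin pathways (Smad6, Smad7, Smad1, Smad5, Id1, Id2, Id3, Bambi and Acvrl1) were examined in mouse peritoneal macrophages (PM). They were taken by symbol from tables of 16920 genes and compared over 4 groups of libraries, 10 genes in all. They had been selected on the measured KO against WT differences in these libraries, in which Gdf3, Smad6 and Id3 were higher in the libraries labelled Ythdf1 knockout (KO) than in wild type (WT) under both treatments. The KO against WT values of the 10 genes are therefore given as a description, with no test. The response to lipopolysaccharide (LPS) within each label was not itself a ground of the choice and was tested. It rests on the same libraries, however, and its p-values take no account of the choice. The cells came from WT mice or from Ythdf1-/- mice, described as knockouts of a reader protein of the RNA mark N6-methyladenosine, and all mice were on a C57BL/6 background and 6 to 10 weeks old. Both kinds of cells were drawn into the peritoneal cavity with an injected irritant (6% starch broth for 3 days in the series record, thioglycollate in the study's methods), kept in culture overnight and given PBS or 1 µg/mL LPS for 6 h. Messenger RNA was counted by sequencing in 3 libraries of each of the groups WT PBS, WT LPS, KO PBS and KO LPS, described as independent biological replicates.

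BMPs, activins and growth and differentiation factors such as Gdf3 are secreted ligands that bring type I and type II receptor kinases together. BMP-type receptors phosphorylate Smad1 and Smad5 and activin-type receptors phosphorylate Smad2 and Smad3, which enter the nucleus with Smad4. Smad6 and Smad7 are inhibitory Smads whose own genes are induced by the pathway, and Id1, Id2 and Id3 are classical BMP target genes whose products hold E proteins, a class of transcription factors, away from DNA. Bambi is a pseudoreceptor that lacks a kinase, and Acvrl1 (ALK1) is a type I receptor for BMP9 and BMP10 that is best known from endothelium.

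Total counts lay between 21546274 and 22017005 per library, and 3 counts, used here as a floor, equalled 0.105 to 0.187 CPM (the normalised read count of edgeR, with library sizes scaled by TMM). Ythdf1 mRNA was not lower in the KO-labelled libraries, with 43.5 ± 1.54 CPM (SD, n = 3) in WT PBS, 57.2 ± 1.53 in KO PBS, 202 ± 9.37 in WT LPS and 198 ± 6.94 in KO LPS. These counts sum over the whole gene and do not show a small deletion, so for these libraries the genotype rests on the labels. Outside them, the study shows tail genotyping of its Ythdf1-/- mice and YTHDF1 immunoblots of bone marrow chimeras. WT LPS replicate 1 stood apart, with a mean chi-square per gene of 32.9 and 25.6 against replicates 2 and 3, which differed from each other by 3.09. The KO LPS libraries differed among themselves by 5.85 to 16.7, most between replicates 2 and 3, against 2.78 to 4.7 in the PBS groups. The summed level of 8 macrophage markers, most of it Lyz2 and Cd68, was 17170 to 19940 CPM in every library. Some single markers differed by label without overlap. Over all genes tested, 23.5% were higher and 24.6% lower by the KO label without overlap under PBS, and 24.2% and 21.4% under LPS. Under PBS, Adgre1 was at 577 to 601 CPM in WT PBS and 467 to 469 in KO PBS, Cd14 at 52.8 to 56.9 and 58.2 to 66.0, and Lyz2 at 11507 to 12281 and 12734 to 12849. Under LPS, Mertk was at 225 to 246 CPM in WT LPS and 87.6 to 107 in KO LPS, Csf1r at 361 to 522 and 277 to 320, Cd68 at 3649 to 3740 and 3128 to 3326, and Cd14 at 433 to 479 and 694 to 764. Of 10 endothelial markers, 8 were in the tables, Tek and Robo4 were at or under the floor throughout, and the sum was 101 to 104 CPM in WT PBS, 111 to 178 in WT LPS, 126 to 142 in KO PBS and 133 to 181 in KO LPS. In bulk RNA, fewer cells of a type and less RNA per cell cannot be told apart.

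Sequence is shown for the promoters of Smad6 and Id3, which had the highest KO against WT ratios after Gdf3 among the genes with a listed promoter, and of Id2, the most abundant member. They are from RefSeq (GRCm38.p6), run 5′ to 3′ on the gene's own strand, and hold 250 bases before the start listed for the promoter and 10 after it. Capitals mark the letters GTCT or their reverse complement AGAC (the core of the Smad-binding element) and, in Id2, GGCGCC, a GC-rich letter run of BMP-responsive elements.
Smad6, chr9:64022050-64022309, minus strand: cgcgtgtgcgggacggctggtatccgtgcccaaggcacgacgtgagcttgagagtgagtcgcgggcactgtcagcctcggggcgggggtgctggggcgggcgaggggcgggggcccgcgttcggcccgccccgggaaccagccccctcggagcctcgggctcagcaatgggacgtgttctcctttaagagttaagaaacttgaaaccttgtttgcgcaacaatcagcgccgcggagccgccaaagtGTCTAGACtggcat
Id3, chr4:136143572-136143831, plus strand: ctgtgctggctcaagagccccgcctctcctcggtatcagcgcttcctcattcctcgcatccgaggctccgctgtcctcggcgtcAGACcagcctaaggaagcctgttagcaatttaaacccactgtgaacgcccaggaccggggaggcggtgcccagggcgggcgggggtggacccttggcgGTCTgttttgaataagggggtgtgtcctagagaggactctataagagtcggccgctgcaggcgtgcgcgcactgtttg
Id2, chr12:25096083-25096342, minus strand: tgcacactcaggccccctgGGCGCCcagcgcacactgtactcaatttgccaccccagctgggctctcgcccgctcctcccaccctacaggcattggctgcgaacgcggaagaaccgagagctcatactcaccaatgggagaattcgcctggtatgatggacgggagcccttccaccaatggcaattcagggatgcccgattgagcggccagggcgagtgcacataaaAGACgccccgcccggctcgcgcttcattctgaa

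Promoters were listed for 5 of the 10 genes (Smad6, Id3, Id2, Smad1 and Smad5). The run GTCTAGAC, in which GTCT and AGAC abut and which reads the same on both strands, lay at -4 to 4 around the start listed for the Smad6 promoter. That listed start lies inside the gene, downstream of its outermost base at 64022085. GTCTAGAC was in 70 of 32851 promoter windows of 300 bases (0.213%). GTCT or AGAC alone was in 88.0% of the windows, and it lay at -166, -68 and 22 in Id3 and at -23 in Id2, the position of the first base being given. GGCGCC, its own reverse complement, was in 11.9% of the windows and at -231 in Id2. Smad5, which overlapped between labels, had 3 windows with different starts. They held GTCT or AGAC at -171, at -213, and at -69 and -20, and the first 2 held GGCGCC at 24 and -19. The Smad1 window held none of these letter runs. A match of letters is a description and not a bound site.

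Gdf3 (gene 14562, chr6:122605403-122610087, minus strand, GRCm38.p6), the ligand of the group, is related to Nodal and is best known from pluripotent cells and from macrophages of adipose tissue. Its normalised read count was 0.25, 0.25 and 0.21 CPM in the 3 WT PBS libraries, where 6.36 to 7.36 counts stood behind each value, and 1.39, 1.14 and 1.24 CPM in WT LPS. It was 20.55, 21.41 and 22.32 CPM in KO PBS and 14.42, 16.71 and 15.61 CPM in KO LPS. Each group was thus free of overlap with every other, with WT PBS lowest and KO PBS highest. The KO-labelled mean exceeded the WT mean by a log2 fold change of 6.45 ± 0.138 (SE) under PBS, a ratio of 87.5, and by 3.63 ± 0.123 under LPS, a ratio of 12.4. The direction of the LPS response differed by label. In WT, the Gdf3 level rose with LPS, 2.36 ± 0.253 on the log2 scale (edgeR quasi-likelihood test, adjusted p = 2.31e-07), whereas in the KO-labelled libraries it fell by 0.46 ± 0.0755 (adjusted p = 3.06e-05), and both held in all 3 libraries. Gdf3 carried decimal counts in all 12 libraries, the mark of reads that the counting shared with another entry, which the tables do not name.

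**Figure D1:**
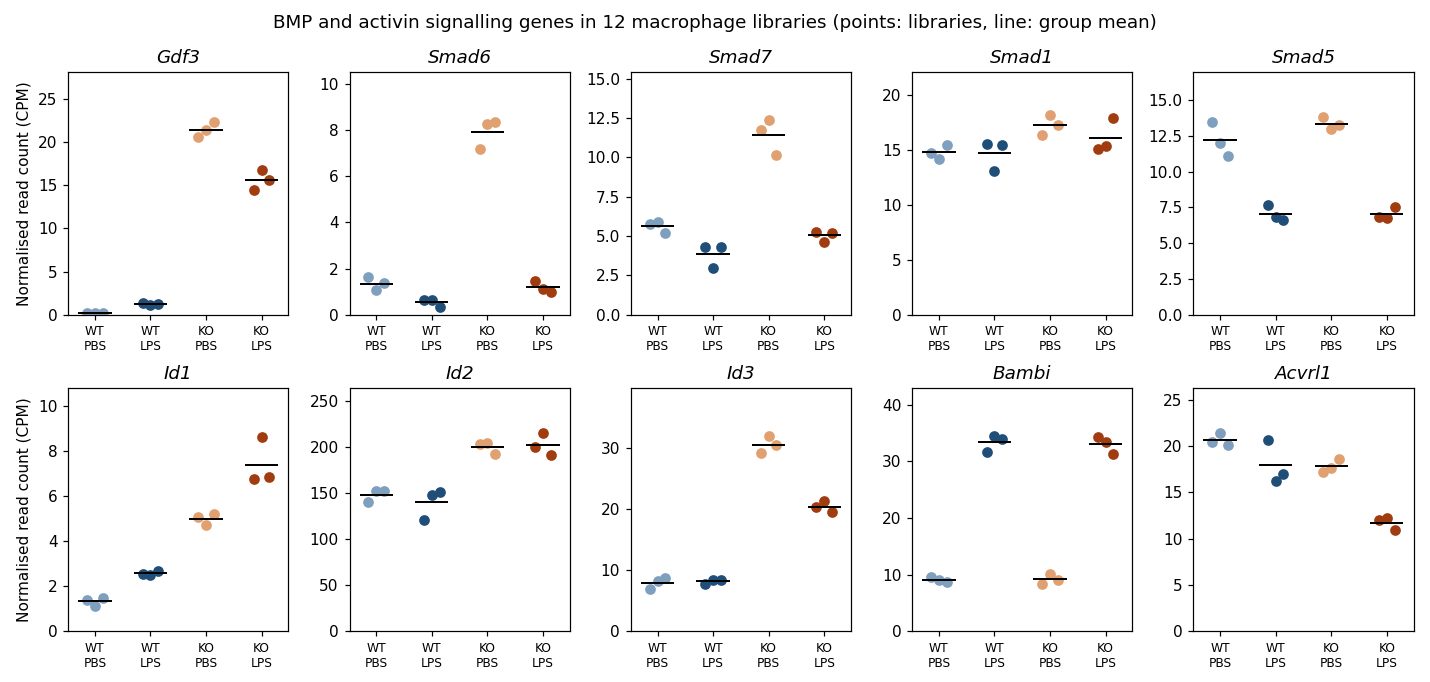
Normalised read count (CPM, linear axis from 0) of the 10 genes in each of the 12 libraries, 1 panel a gene, with points for libraries and a line for the mean of 3. Gdf3, Smad6, Smad7 and Id3 are highest in the KO PBS libraries, and Bambi follows the treatment and not the label.

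Smad6 (gene 17130, chr9:63953076-64022085, minus strand), which blocks BMP-type receptors and Smad1, was sparse in WT. It was at 1.63, 1.07 and 1.36 CPM in WT PBS, 0.64, 0.63 and 0.34 in WT LPS (6 to 11 counts), 7.18, 8.25 and 8.36 in KO PBS and 1.47, 1.10 and 1.00 in KO LPS. All KO PBS libraries were above every other library, while WT PBS and KO LPS overlapped. The KO against WT log2 fold change was 2.55 ± 0.156 under PBS and 1.15 ± 0.315 under LPS. With LPS, Smad6 fell by 1.34 ± 0.280 in WT (adjusted p = 0.000385) and by 2.73 ± 0.181 in the KO-labelled libraries (adjusted p = 3.71e-10), the latter a 6.63-fold lower level.

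Smad7 (gene 17131, chr18:75367365-75395935, plus strand), which inhibits TGF-β, activin and BMP receptors alike, showed the same order of groups with smaller steps. It was at 5.75, 5.90 and 5.18 CPM in WT PBS, 4.34, 2.96 and 4.29 in WT LPS, 11.76, 12.39 and 10.13 in KO PBS and 5.28, 4.65 and 5.22 in KO LPS. The KO-labelled level was higher by a log2 fold change of 1.03 ± 0.113 under PBS and 0.39 ± 0.156 under LPS, with no overlap of libraries in either. Smad7 fell with LPS by 0.54 ± 0.142 in WT (adjusted p = 0.00251) and by 1.18 ± 0.126 in the KO-labelled libraries (adjusted p = 2.00e-07).

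The receptor-activated Smads of the BMP branch moved little by label. Smad1 (gene 17125, chr8:79338395-79399428, minus strand) was at 14.72, 14.20 and 15.48 CPM in WT PBS, 15.50, 13.10 and 15.40 in WT LPS, 16.35, 18.15 and 17.22 in KO PBS and 15.10, 15.30 and 17.85 in KO LPS. Its KO against WT log2 fold change was 0.22 ± 0.0825 under PBS and 0.13 ± 0.0923 under LPS, and its LPS response did not pass in WT (-0.01, adjusted p = 0.896) or in the KO-labelled libraries (-0.10, adjusted p = 0.297). Smad5 (gene 17129, chr13:56703010-56742378, plus strand) was at 13.49, 12.02 and 11.12 CPM in WT PBS, 7.69, 6.83 and 6.60 in WT LPS, 13.79, 12.99 and 13.25 in KO PBS and 6.81, 6.73 and 7.52 in KO LPS. It fell with LPS under both labels, by 0.79 ± 0.0969 in WT (adjusted p = 1.14e-06) and by 0.93 ± 0.0973 in the KO-labelled libraries (adjusted p = 1.59e-07). Between labels Smad5 overlapped under either treatment, at 0.13 ± 0.0836 under PBS and -0.00 under LPS.

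Among the Id genes, Id3 and Id1 were far higher in the KO-labelled libraries and Id2 slightly so. Id3 (gene 15903, chr4:136143822-136145392, plus strand) was at 6.87, 8.23 and 8.72 CPM in WT PBS and 7.69, 8.37 and 8.40 in WT LPS, against 29.26, 32.01 and 30.57 in KO PBS and 20.31, 21.36 and 19.59 in KO LPS. All 6 KO-labelled libraries were above all 6 WT libraries, by a log2 fold change of 1.95 ± 0.0830 under PBS and 1.32 ± 0.0943 under LPS. Id3 did not pass with LPS in WT (0.04 ± 0.0993, adjusted p = 0.733) but fell by 0.58 ± 0.0790 in the KO-labelled libraries (adjusted p = 3.44e-06).

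Id1 (gene 15901, chr2:152736251-152737410, plus strand) was at 1.37, 1.11 and 1.47 CPM in WT PBS, 2.54, 2.51 and 2.65 in WT LPS, 5.08, 4.74 and 5.21 in KO PBS and 6.75, 8.63 and 6.84 in KO LPS. No group overlapped another, and the order rose from WT PBS over WT LPS and KO PBS to KO LPS. The KO against WT log2 fold change was 1.92 ± 0.144 under PBS and 1.53 ± 0.141 under LPS. With TMM scaling Id1 rose with LPS by 0.96 ± 0.174 in WT (adjusted p = 9.40e-05) and by 0.56 ± 0.118 in the KO-labelled libraries (adjusted p = 0.000335). Neither call held when libraries were scaled by their totals alone (0.30 and -0.24), a scaling that placed the median of all genes at -0.71 and -0.84. In that scaling Id1 therefore lay above the median gene under both labels.

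Id2 (gene 15902, chr12:25093799-25096092, minus strand) was the most abundant member, at 140.52, 152.00 and 152.65 CPM in WT PBS, 121.10, 148.44 and 151.28 in WT LPS, 203.74, 204.11 and 192.90 in KO PBS and 199.76, 215.47 and 191.53 in KO LPS. The 6 KO-labelled libraries were above the 6 WT libraries, by a log2 fold change of 0.43 ± 0.0760 under PBS and 0.53 ± 0.0771 under LPS. Its LPS response did not pass under either label, at -0.08 (adjusted p = 0.345) and 0.01 (adjusted p = 0.868). The fourth Id gene, Id4, was too low to test, with 0 to 2 counts in each library.

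The pseudoreceptor gene Bambi (gene 68010, chr18:3507011-3516404, plus strand) followed the treatment. It was at 9.47, 8.94 and 8.65 CPM in WT PBS and 8.37, 10.11 and 9.10 in KO PBS, and at 31.63, 34.51 and 34.01 in WT LPS and 34.37, 33.48 and 31.40 in KO LPS. Bambi rose with LPS by 1.89 ± 0.0795 in WT (adjusted p = 8.29e-13) and 1.85 ± 0.0796 in the KO-labelled libraries (adjusted p = 9.68e-13), whereas the labels overlapped under PBS (0.03 ± 0.0854) and under LPS (-0.01 ± 0.0736).

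Acvrl1 (gene 11482, chr15:101128522-101145336, plus strand) was the member with a lower level by the KO label. It was at 20.39, 21.36 and 20.09 CPM in WT PBS, 20.65, 16.23 and 16.92 in WT LPS, 17.19, 17.66 and 18.56 in KO PBS and 12.03, 12.18 and 10.94 in KO LPS. The KO against WT log2 fold change was -0.21 ± 0.0810 under PBS and -0.61 ± 0.0950 under LPS, with no overlap of libraries in either. The gene fell with LPS by 0.60 ± 0.0913 in the KO-labelled libraries (adjusted p = 1.26e-05). In WT it passed narrowly at -0.20 ± 0.0848 (adjusted p = 0.0401), with overlapping libraries, and the call was lost under RLE scaling (-0.16), with DESeq2 (-0.16), with only the libraries compared (-0.20) and in 9 of the 12 fits that left out 1 library. The endothelial markers did not move as one by label under PBS. Vwf (86.9 to 91.3 CPM in WT PBS, 105 to 120 in KO PBS) and Kdr (11.2 to 12.9 and 19.7 to 21.0), which made up most of their sum, were higher, and Cdh5 (0.65 to 0.93 and 0.39 to 0.49) was lower, and the part of such cells in the Acvrl1 level was not tested.

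**Figure D2:**
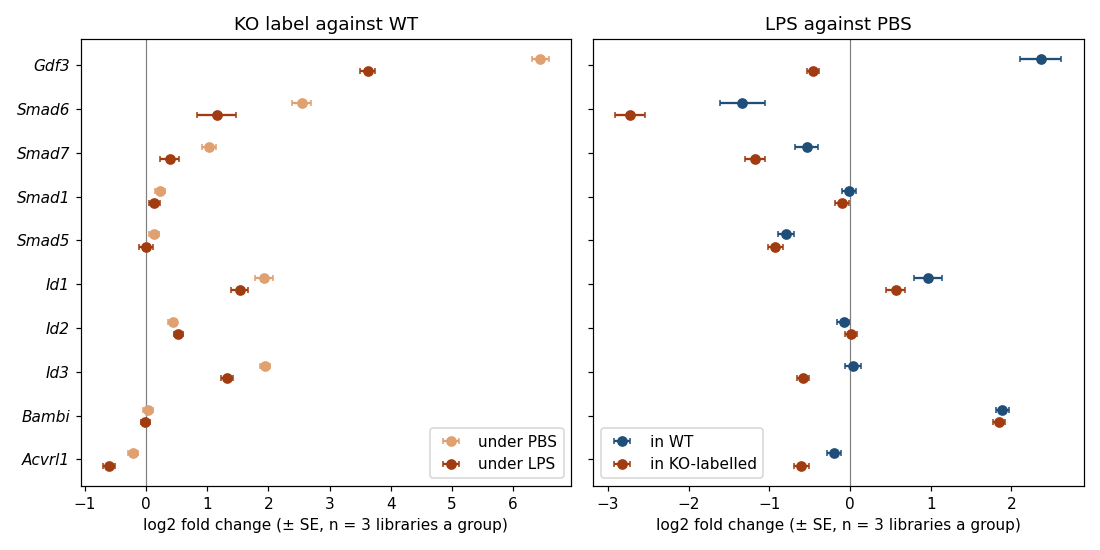
Log2 fold changes (points) with their SE (bars) from the fit of the 12 libraries, KO label against WT on the left and LPS against PBS on the right. By label Gdf3 is farthest right under PBS (6.45) and LPS (3.63). With LPS it lies at 2.36 in WT and at -0.46 in the KO-labelled libraries.

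Over the 10 genes, 7 changed with LPS in WT, 3 higher (Gdf3, Id1 and Bambi) and 4 lower (Smad6, Smad7, Smad5 and Acvrl1), where 76.7% of the 12064 genes tested were called, 36.5% higher and 40.2% lower. In the KO-labelled libraries 8 changed, 2 higher (Id1 and Bambi) and 6 lower (Gdf3, Smad6, Smad7, Smad5, Id3 and Acvrl1), against 79.9% of all genes, 38.8% higher and 41.1% lower. The total shares were near the background in both, while in the KO-labelled libraries fewer members were higher and more were lower than over all genes, which was not tested. The choice of the members used the same KO PBS and KO LPS libraries, and its part in this was not tested. Without WT LPS replicate 1, all of these 7 and 8 calls remained. Calls were gained under scalings that placed the median of all genes lower. With upper-quartile scaling, which placed it at -0.36 in WT and -0.40 in the KO-labelled libraries, Smad1 (-0.32 and -0.46) and Id2 (-0.39 and -0.34) passed as lower under both labels and Id3 in WT (-0.27). With library totals alone Smad1 (-0.68 and -0.90), Id2 (-0.74 and -0.79) and Id3 in WT (-0.62) passed as lower as well. The Id1 call was lost in the KO-labelled libraries under both of these scalings, and in WT with library totals alone. The median log2 fold change of the 10 was -0.05 in WT, the same as that of all genes (-0.05), and -0.52 in the KO-labelled libraries, against -0.04 for all genes. By label under PBS, 7 of the 10 genes were higher without overlap and 1 was lower, as were 23.5% and 24.6% of all genes. Under LPS 6 were higher and 1 lower, beside 24.2% and 21.4% of all genes. Gdf3, Smad6, Smad7, Id1, Id2 and Id3 were higher without overlap under both treatments, as were 11.0% of all genes tested. The 2 comparisons by label share no libraries, but the choice of genes used both. The LPS minus PBS difference was lower in the KO-labelled libraries than in WT by 2.82 on the log2 scale for Gdf3, 1.39 for Smad6, 0.64 for Smad7, 0.62 for Id3, 0.40 for Id1 and 0.40 for Acvrl1, as differences of the values above and not as a test.

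Levels can be compared between genes per kilobase of exon. In WT PBS, Id2 stood at 60.9 ± 2.80 CPM per kilobase (SD, n = 3), followed by Id3 at 6.21 ± 0.750 and Acvrl1 at 5.43 ± 0.174, which did not differ beyond their spread. Smad1 (2.86), Bambi (1.78), Smad5 (1.70), Smad7 (1.28), Id1 (1.14) and Smad6 (0.455) came next, and Gdf3 was last at 0.113 ± 0.0101. Bambi and Smad5, and Smad7 and Id1, were within their spread of each other. In KO PBS, the level of Gdf3 per kilobase was 10.1 ± 0.417, behind Id2 (82.1 ± 2.61) and Id3 (24.0 ± 1.08) and above Acvrl1 (4.69 ± 0.185), Id1 (4.32 ± 0.209), Smad1 (3.33) and Smad6 (2.67 ± 0.220). In WT LPS, Gdf3 (0.591 ± 0.0590) was above Smad6 alone (0.180 ± 0.0569), and in KO LPS it was again behind Id2 and Id3 (7.33 ± 0.539), within its spread of Id1 (6.39 ± 0.914) and near Bambi (6.52 ± 0.300).

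The wider pathway was read from a list of 99 other ligands, receptors, co-receptors, Smads, inhibitors, regulators and targets, of which 93 were in the tables and 53 passed the filter on low counts. With LPS in WT, 41 of the 53 changed (26 higher, 15 lower), and in the KO-labelled libraries 47 changed (32 higher, 15 lower). As shares these were 77.4% and 88.7%, beside 76.7% and 79.9% of all genes tested. The median log2 fold change of the 53 was 0.37 and 0.50. The split depended on the scaling, since with library totals alone it was 16 higher and 29 lower in WT and 14 higher and 28 lower in the KO-labelled libraries. By label, 20 of the 53 passed under PBS (11 higher, 9 lower), where 25.3% of all genes were called, and 23 under LPS (16 higher, 7 lower), where 41.4% were. The LPS response differed between the labels (interaction term) for 12, 8 with a higher and 4 with a lower response in the KO-labelled libraries, where 18.0% of all genes passed. Without KO LPS replicate 1 the count was 7.

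Among the 7 ligands tested, the largest LPS response was that of Inhba, the βA subunit of activin A. It was at 0.43, 0.36 and 0.29 CPM in WT PBS and 0.42, 0.21 and 0.60 in KO PBS, and at 42.80, 36.33 and 41.63 in WT LPS and 188.71, 145.14 and 186.68 in KO LPS. The labels overlapped under PBS, while under LPS each KO-labelled library was above each WT library, with a difference of 2.11 ± 0.108 on the log2 scale (adjusted p = 1.76e-09). Inhba rose with LPS by 6.79 in WT (adjusted p = 1.67e-14) and by 8.70 in the KO-labelled libraries (adjusted p = 1.83e-16). Gdf15, a distant member of the family, was higher by the KO label under LPS by 1.40 (adjusted p = 8.80e-11), from 85.30 to 93.98 CPM in WT LPS and 228.84 to 247.37 in KO LPS. Bmp2 was lower by the KO label under PBS (-0.88, adjusted p = 0.000447) and LPS (-0.77, adjusted p = 0.000341). Tgfb3 was lower under PBS (-1.45, adjusted p = 0.00248). Tgfb1 rose with LPS in WT (0.37, adjusted p = 0.00977) and in the KO-labelled libraries (0.55, adjusted p = 0.000590), but was lower with library totals alone. The other 20 ligands in the tables were too low to test.

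All 8 receptors tested changed with LPS under both labels, 5 higher and 3 lower, where 76.7% (WT) and 79.9% (KO-labelled) of all genes did. Acvr1, a type I receptor of BMPs, rose by 2.15 in WT (adjusted p = 4.75e-14) and by 1.80 in the KO-labelled libraries (adjusted p = 5.74e-13). The TGF-β receptor genes Tgfbr1 and Tgfbr2 fell in WT by 2.22 (adjusted p = 1.80e-13) and 2.30 (adjusted p = 1.53e-13), and the type II receptor gene Acvr2b fell by 1.49 (adjusted p = 2.79e-05). In the KO-labelled libraries Tgfbr2 fell by 2.66 (adjusted p = 2.59e-14) and Acvr2b by 2.01 (adjusted p = 1.18e-06). The type II receptors of BMPs and activins Acvr2a and Bmpr2 and the type I receptor Bmpr1a were higher with LPS with TMM scaling, at 0.46, 0.60 and 0.51 in WT, but below 0 with library totals alone, and the Bmpr1a call in WT (adjusted p = 0.0283) was lost with upper-quartile scaling (0.20), without the filter on low counts (0.47) and in 3 of the 12 fits that left out 1 library (0.44 without WT PBS replicate 1, 0.50 without WT PBS replicate 2 and 0.41 without WT LPS replicate 3). By the KO label, Acvr2a was higher under PBS (0.61, adjusted p = 0.00102) and under LPS (0.86, adjusted p = 3.10e-05), Bmpr2 under PBS (0.47, adjusted p = 0.000320) and LPS (0.40, adjusted p = 0.000593), and Tgfbr1 under PBS (0.59, adjusted p = 2.40e-05) and LPS (0.46, adjusted p = 0.000753). Acvr1b, named after its values were seen to complete the 4 receptors higher under LPS, was at 0.49 (adjusted p = 0.000630). Acvr1 (-0.37, adjusted p = 0.000462) and Tgfbr2 (-0.41, adjusted p = 0.00139) were lower under LPS.

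Of the other Smads, Smad3, the activin and TGF-β effector, was at 9.29, 8.73 and 10.01 CPM in WT PBS, 2.55, 2.33 and 2.03 in WT LPS, 6.55, 5.37 and 5.88 in KO PBS and 1.47, 1.04 and 1.49 in KO LPS. It was lower by the KO label under PBS (-0.65 ± 0.104, adjusted p = 0.000270) and under LPS (-0.78 ± 0.202, adjusted p = 0.00540), with no overlap in either, and fell with LPS by 2.02 in WT (adjusted p = 4.05e-10) and by 2.15 in the KO-labelled libraries (adjusted p = 1.99e-09). Smad2 was higher by the KO label under LPS (0.30, adjusted p = 0.000866) but not past the threshold under PBS (0.06, adjusted p = 0.521), and the common partner Smad4 passed by label under neither (0.09, adjusted p = 0.382, and 0.17, adjusted p = 0.0502). Smad9 was too low to test, with 0 to 6 counts in each library.

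**Figure D3:**
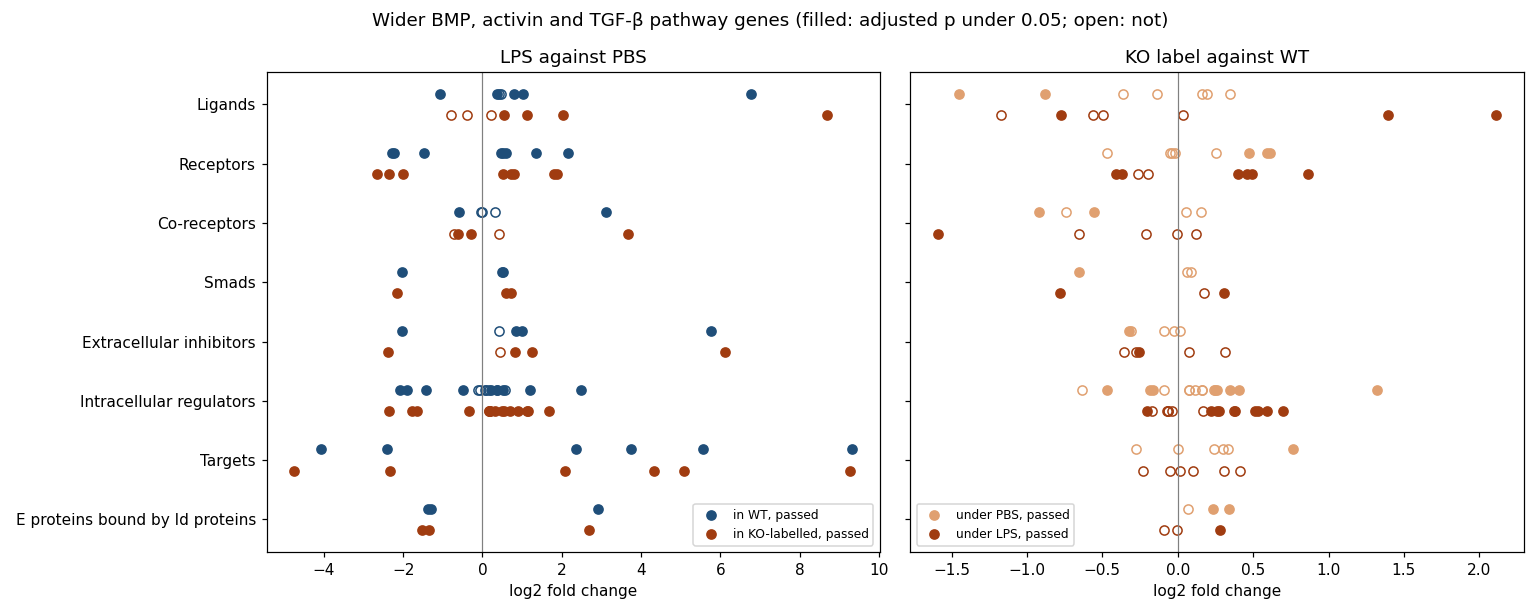
Log2 fold changes of the 53 pathway genes tested, by role (rows), for LPS against PBS (left) and KO label against WT (right), with filled points for genes past the threshold and open points for the rest. The ligand at the far right in both panels is Inhba, at 8.70 with LPS in the KO-labelled libraries and 2.11 by label under LPS.

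Inside the cell, all 16 regulators tested passed with LPS in the KO-labelled libraries (12 higher, 4 lower) and 10 in WT (6 higher, 4 lower), beside 79.9% and 76.7% of all genes. The WT share (62.5%) was below that of all genes. Skil (SnoN), a corepressor of Smads that is itself induced by TGF-β signalling, was at 18.98, 17.67 and 17.37 CPM in WT PBS and 46.62, 42.65 and 46.02 in KO PBS. It was higher by the KO label under PBS (1.32, adjusted p = 6.30e-09) and under LPS (0.53, adjusted p = 1.81e-05). Its relative Ski fell with LPS in WT (by 2.08) and in the KO-labelled libraries (by 2.36, adjusted p = 2.17e-14). Zfyve16 (endofin), an adaptor that binds Smads at endosomes, was higher by the KO label under LPS (0.70, adjusted p = 8.07e-06). Outside the cell, the activin antagonist Fst rose with LPS by 5.77 in WT (adjusted p = 1.15e-12) and 6.11 in the KO-labelled libraries (adjusted p = 3.03e-13), without passing by label under LPS (0.31, adjusted p = 0.0769). The inhibitor Dand5 fell with LPS by 2.02 in WT (adjusted p = 2.07e-06) and by 2.40 in the KO-labelled libraries (adjusted p = 5.79e-07). Of the co-receptors, Rgma was lower by the KO label under PBS (-0.92, adjusted p = 0.0238) and LPS (-1.59, adjusted p = 0.00306), and the PBS call was lost in 4 of the 12 fits that left out 1 library.

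Of 6 other target genes tested, 1 passed by label under PBS (Hey1, 0.77 higher, adjusted p = 0.0121) and 0 under LPS, beside 25.3% and 41.4% of all genes. The Hey1 call was lost in 1 of the 12 fits that left out 1 library. Under LPS 2 of the 6 had an unadjusted p under 0.05 by edgeR and 1 by DESeq2, which also called 0 after adjustment, and Runx2 was at 0.41 (adjusted p = 0.199). All 6 changed with LPS under both labels, 4 higher and 2 lower, beside 76.7% and 79.9% of all genes. Hamp, the hepcidin gene and a BMP target in liver, was at 0 counts in all 6 PBS libraries and at least 32.8-fold higher with LPS in WT and at least 32.3-fold higher in the KO-labelled libraries, against a floor of 3 counts per library. Hey1 was at least 8.04-fold lower with LPS in WT and at least 12.7-fold lower in the KO-labelled libraries against the same floor. Runx2 fell in WT by 2.41 (adjusted p = 2.61e-09). Of the 3 genes for E proteins, the partners that Id proteins bind, 1 rose and 2 fell with LPS under both labels, beside 76.7% and 79.9% of all genes called. By label, 2 of the 3 passed as higher in the KO-labelled libraries under PBS and 1 under LPS, beside 25.3% and 41.4% of all genes.

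The genes whose log2 CPM was most like that of Gdf3 over the 12 libraries were Gm42031 (Pearson r = 0.962), Lsp1 (0.959) and Gm5785 (0.956). For Smad6 they were Nnt (0.977), BC005537 (0.974) and Dppa3 (0.973), and for Id3 Pan3 (0.972), Gm42031 (0.968) and Fam32a (0.960). The points share the 4 groups, and the values are a description. Nnt, which encodes a mitochondrial transhydrogenase and is known to carry a deletion in one C57BL/6 substrain, averaged 18.1 ± 1.02 CPM in WT PBS, 11.4 ± 2.32 in WT LPS, 38.5 ± 0.496 in KO PBS and 18.4 ± 0.307 in KO LPS. The study names WT littermates for its hepatitis experiments in mice, but does not say so for the PM. The substrain behind either label is not given in the sources used here, so genotype and background cannot be told apart here.

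Dppa3 also lies next to Gdf3 on chromosome 6, and the genes within 300 kb of Gdf3 were read after these values had been seen, with no test. Dppa3, a germ-cell and pluripotency gene 16.3 kb away, had 2 to 4 counts per library in WT PBS, 0 to 1 in WT LPS, 71 to 82 in KO PBS and 2 to 4 in KO LPS. Apobec1, an RNA-editing cytidine deaminase 2.38 kb away on the other side, averaged 88.6 ± 6.10 CPM in WT PBS, 96.5 ± 9.78 in WT LPS, 251 ± 7.85 in KO PBS and 127 ± 5.65 in KO LPS, a KO against WT log2 fold change of 1.50 ± 0.0737 under PBS and 0.40 ± 0.0744 under LPS. Beyond them, Nanog at 97.4 kb was at 0.108 to 0.143 CPM in WT PBS and 0.245 to 0.425 in KO PBS, without overlap (1.43 ± 0.500), and at -0.13 ± 0.410 under LPS. Slc2a3 at 118 kb was lower by the KO label (-0.81 and -0.75), and C3ar1 at 237 kb stood at -0.15 under both treatments. Of the 13 genes listed in this span, Gdf3 included, 10 were tested.

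**Figure D4:**
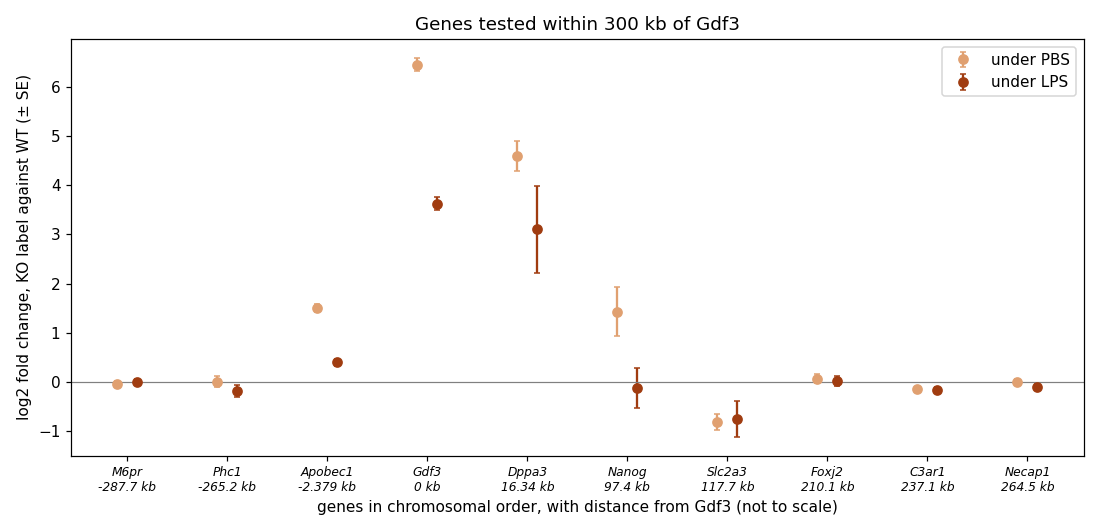
KO label against WT log2 fold changes (points, with SE) of the 10 genes tested within 300 kb of Gdf3, in chromosomal order with even spacing, under PBS and LPS. Gdf3 and its neighbours on both sides, Apobec1 and Dppa3, lie above 0 under both treatments. The Dppa3 values rest on 0 to 4 counts in 9 of the 12 libraries and depend on the prior count of the fit.

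Markers of other cells moved with the labels as well. The sum of 7 fibroblast markers (Lum at or under the floor throughout) was 75.3 to 88.9 CPM in WT PBS and 33.4 to 46.5 in KO PBS, and 130 to 144 in WT LPS and 67.9 to 83.6 in KO LPS. The sum of 6 markers of large resident peritoneal macrophages was 8.48 to 9.55 in WT PBS, 6.99 to 7.33 in KO PBS, 14.5 to 17.6 in WT LPS and 6.78 to 7.86 in KO LPS. The 5 skeletal muscle markers summed to 17.2 to 22.6 in WT PBS and 28.7 to 33.6 in WT LPS, and to 0.429 to 0.684 in KO LPS. The KO PBS libraries differed among themselves, since Acta1 was at 7.07 and 9.55 CPM in replicates 1 and 2, near the WT libraries, but at 0.035 in replicate 3, which was like KO LPS. Without KO PBS replicate 3, the 8 LPS calls of the members in the KO-labelled libraries remained. Within the resident macrophage list, Icam2 went the other way under PBS (2.93 to 3.94 CPM in WT PBS, 4.59 to 4.88 in KO PBS). The fibroblast and resident macrophage sums were lower in the KO-labelled libraries without overlap under both treatments, where Gdf3, Smad6, Id1 and Id3 were higher. The T and NK cell list, with Cd3d, Cd3e, Cd3g and Ncr1 at or under the floor in every library, summed to 8.79 to 13.3 CPM in WT LPS and 3.98 to 4.59 in KO LPS, nearly all of it Lck. The mesothelial sum was 11.7 to 13.3 in WT PBS and 6.73 to 11.0 in KO PBS, and it overlapped under LPS (11.96 to 14.97 in WT, 9.02 to 13.6 in KO). The mast cell sum, mostly Kit, was lower by label under PBS (0.644 to 0.904 in WT, 0.175 to 0.456 in KO) and higher under LPS (1.02 to 1.42 in WT, 2.82 to 3.56 in KO). The B cell list summed to at most 1.92 and the neutrophil list to at most 16.0 in any library. The part of these cells in the results was not tested.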

How the data were processed

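Single-end reads of PM mRNA (12 libraries) came from a BGISEQ-500 instrument. The deposited values are expected counts per gene, not scaled between libraries, and per the labels they were made by the authors with Bowtie2 and RSEM 1.3.1 on GRCm38.p6, whereas the study's methods name STAR and HTSeq. Decimals, which a counter that shares reads between genes gives, stood in 24.6% to 26.9% of the values, and reads shared between genes remain uncertain.

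Expected counts were rounded, filtered with filterByExpr (12064 of 16920 genes kept) and scaled with TMM. The quasi-likelihood fit of edgeR 4.0.16, the tool that the study names, took the 12 libraries together with a mean for each group and robust dispersions (R 4.3.3, limma 3.58.1). P-values were two-sided and Benjamini-Hochberg adjusted over the 12064 genes and called under 0.05. The SE was derived from the log2 fold change and the F statistic and is approximate. A pipeline test on simulated data was run first. Exon lengths came from the GENCODE annotation of GRCm38.

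The 10 genes and all lists were chosen with earlier results of these data known. From the pathway list the text names up to 4 genes each way per contrast with the largest change among those past the threshold and at 1 CPM or more in the higher group, and Id4, Smad2, Smad3, Smad4, Smad9, Bmpr2, Bmpr1a, Acvr1, Acvr2a, Acvr2b, Inhba and Tgfb1 always. The counts cover the whole list, and the values of 1 gene of it are not reported here. The text also names the 3 genes most like each of Gdf3, Smad6 and Id3. Alternatives were RLE, upper-quartile and totals-only scaling, no filter, a minimum of 10 counts in each library, the libraries compared on their own, DESeq2 1.42.0, a replicate block and leaving out each library. Floors cover counting error only. Raw reads and exon-level values were not analysed here.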

Additional observations from a re-analysis of the deposited data

Results flagged for a closer look

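Gdf3 moved in opposite directions with LPS, up in all 3 WT and down in all 3 KO-labelled libraries, and the difference of the log2 fold changes was -2.82. That difference was not tested, because the choice of Gdf3 used the same values.

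Values are given for 7 other genes of the pathway list, taken from those that the naming rule above picked and not all that passed. For these the response to LPS differed between the labels by the interaction term of the edgeR model (LPS response in KO-labelled minus that in WT, adjusted over all genes tested). It was larger in the KO-labelled libraries for Inhba (1.92, adjusted p = 0.0116), Gdf15 (1.24, adjusted p = 1.28e-07), the co-receptor gene Eng (0.552, adjusted p = 0.00789) and Zfyve16 (0.538, adjusted p = 0.00480). It was smaller for Skil (-0.795, adjusted p = 6.09e-05), Tgfbr2 (-0.361, adjusted p = 0.0447) and Acvr1 (-0.349, adjusted p = 0.0299). Of the 53 genes tested, 12 passed this term, against 18.0% of all genes, and 7 did without KO LPS replicate 1. Leaving out 1 library at a time ended the call of Tgfbr2 in 6 of 12 fits, of Acvr1 in 2 and of Inhba in 1.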

How the results depend on the processing

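Of the 10 members, 7 (WT) and 8 (KO-labelled) passed with LPS, and leaving out 1 library at a time gave 6 to 7 and 8. Over the pathway list the leave-one-out counts were 40 to 43 and 44 to 47 with LPS, 14 to 24 and 23 to 28 by label under PBS and LPS, and 7 to 15 for the interaction, where 12 passed and 7 did without KO LPS replicate 1. Over all genes by label under PBS, 3058 passed, 1992 without KO PBS replicate 1 and 4627 with only the libraries compared. The cause was not tested.

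Scaling decided the direction of weak LPS changes. With library totals alone, 2223 of 10470 genes called in WT were higher, against 4404 of 9254 with TMM, and the changes in WT were -0.62 for Id3, -0.30 for Tgfb1, -0.15 for Bmpr1a, -0.20 for Acvr2a, -0.066 for Bmpr2, -0.18 for Smad2 and -0.15 for Smad4. In the KO-labelled libraries they were -0.24 for Id1, -0.79 for Id2, -0.25 for Tgfb1, -0.0084 for Bmpr1a, -0.092 for Acvr2a, -0.27 for Bmpr2, -0.070 for Smad2 and -0.20 for Smad4. Upper-quartile scaling gave -0.27 for Id3 in WT and -0.34 for Id2 in the KO-labelled libraries, and Id1 there no longer passed (0.21). Without a filter Id3 was at -0.00033 in WT and Id2 at -0.030 in the KO-labelled libraries, and with at least 10 counts in every library, which left out Gdf3 and Smad6, Id2 was at -0.035. Smad1 in WT turned to 0.0325 under RLE scaling and with DESeq2.

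Leaving out 1 library reversed the sign of 5 values that had not passed, in 11 fits, with ranges of -0.055 to 0.062 for Smad1, -0.14 to 0.013 for Id2 and -0.028 to 0.11 for Id3 in WT, -0.032 to 0.053 for Id2 in the KO-labelled libraries and -0.055 to 0.012 for Ythdf1 by label under LPS. Values by label near 0 that were not tested also crossed it, with -0.055 to 0.065 for Smad5 under LPS, -0.021 to 0.12 and -0.050 to 0.024 for Bambi under PBS and LPS, and -0.13 to 0.0042 for the Bambi difference of LPS responses.

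The deviations of libraries with the same replicate number had r from -0.076 to 0.13 over 18 pairs, 1 of them over 0.1, within the range for other numbers (-0.18 to 0.17 over 36 pairs). The highest correlation was with the same number in 18 of 36 cases, each a choice among 3 libraries. With a replicate block the same 7 and 8 members passed, the pathway counts were 41, 47, 21, 24 and 12, and over all genes 2969 passed by label under PBS, 5030 under LPS and 2132 in the interaction, against 3058, 4990 and 2176 without it.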
